A study of Homo sapiens with 18 samples.

Results

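The comparison described here set B11 cells given 1 ug/ml doxycycline for 5 days against untreated B11 cells, with 3 RNA-seq libraries on each side. These are 6 of the 18 libraries of the series. Genes were tested where FPKM, a transcript's fragment number per kilobase after scaling for library depth, reached at least 1 in 3 or more of the 18 libraries, and 17555 of the 60658 gene IDs in the deposited table did so. The series holds 9 plates each of THP1, a human monocytic line from an acute myeloid leukaemia that is labelled as carrying a heterozygous NRAS G12D mutation, and of its subclone B11, labelled heterozygous NRAS G12V. Both lines were sampled at 0, 1 and 10 ug/ml doxycycline after 5 days.

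B11 was derived by lentiviral transfer of a doxycycline-inducible, CRISPR-resistant NRAS that carries G12V, together with GFP. GFP-positive cells were then transduced with Cas9, a puromycin resistance gene and a pair of guide RNAs on either side of the NRAS start codon, and subclones were taken under puromycin. The untreated and the treated B11 plates both carry all of these elements and differ by label in doxycycline alone. THP1 plates at 0 and 1 ug/ml gave the response of the parent line to the same dose. B11 is 1 clone, and its plates were split from 1 grown-out culture, so that p-values measure the spread between plates and not between independent clones or cultures.

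NRAS encodes a small GTPase of the RAS family. When bound to GTP it recruits RAF kinases, which activate MEK and then ERK, and ERK phosphorylates transcription factors that switch on early genes such as EGR1 as well as inhibitors of the pathway itself, such as the DUSP phosphatases and the Sprouty proteins. Substitutions at glycine 12 keep RAS in its active form, and activating NRAS mutations are a recurrent lesion of myeloid leukaemias, where the pathway bears on proliferation and on monocytic differentiation.

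Several facts of the libraries touch the results. Libraries summed to between 1008594 and 1200682 FPKM, and Pearson r across genes between replicate libraries was 0.938 to 0.958. The deepest library was 1.44 times as deep as the shallowest, as read from the steps of low values. Both lay in the compared B11 groups. Relative depth was 0.972, 0.846 and 0.858 in untreated B11 libraries A, B and C, and 0.919, 1.221 and 1.124 at 1 ug/ml. Treated libraries B and C were thus deeper than every untreated B11 library, and treated library A lay within the untreated range. Whether depth bears on the changes of low genes was not tested. Of 12 markers of monocytic leukaemia cells, none was at 0 in any group. They summed to 5993 to 6896 FPKM in untreated B11, 3859 to 3993 at 1 ug/ml and 3689 to 4036 in untreated THP1. Of 8 markers of T and NK cells, CD3E and CD3G were at 0 in both B11 groups and the sum of 171 to 193 FPKM untreated and 205 to 228 treated came mostly from NCAM1, a neural cell adhesion molecule, which was at 154 ± 12.2 and 164 ± 3.92 FPKM (mean ± SD, n = 3). The 5 B cell markers summed to 2.23 to 4.10 FPKM untreated and 5.63 to 7.13 treated with MS4A1 at 0, the 10 erythroid and megakaryocyte markers to 6.98 to 11.2 and 5.06 to 13.1 with HBB at 0, and the 9 stromal and epithelial markers to 1.82 to 3.96 and 2.91 to 3.38 with COL1A2 and EPCAM at 0. NKG7, CD79B and GP9 of these lists passed as higher in treated B11, with log2 differences of 0.83, 1.02 and 1.18. The part of these markers in any result was not tested. In these bulk samples, fewer cells of a type and less RNA per cell cannot be told apart.

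Library B of untreated B11 stood apart from libraries A and C in genes of the ATF4 stress response, which are described below with and without it. It was the highest of the 3 untreated libraries in 38 of 43 of these genes, by a median of 0.67 on the log2 scale over the mean of the other 2. Libraries B and C at 1 ug/ml held an ID with no name at 76850 and 42501 FPKM, 6.51% and 3.76% of their FPKM sums, where no other library exceeded 1.95e-37. That ID did not enter the tests. Leaving out these 2 libraries was an alternative chosen after seeing the data. Counts of 1 or 2 members that went against the majority of a list changed in several lists when libraries were left out, in some to 0. Library A of untreated B11 was the highest of the 3 in 12 of 13 mitochondrially encoded genes.

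The sources used here do not say whether the libraries kept strand. Among the genes named below, reads could be shared with a gene on the other strand in CCNA2 (EXOSC9), PLK1 (ERN2), MCM2 (TPRA1), MCM7 (AP4M1), GINS2 (GSE1), TYMS (ENOSF1), CCNE2 (INTS8), RBL2 (AKTIP), NAB2 (STAT6), MTHFD2 (SLC4A5), MARS (DDIT3) and the pair FADS1 and FADS2. The same holds for PTPN11 (RPL6), MAP2K1 (SNAPC5), RASGRP4 (FAM98C), JUNB (HOOK2), PLAU (C10orf55), RPS3A (SH3D19), MRPL37 (CYB5RL), ATP5F1E (TUBB1), NR1H3 (ACP2), PSME2 (RNF31), PSMB8 (PSMB9), CIITA (DEXI), HSF1 (DGAT1) and PRDX1 (MMACHC). DUSP6, SLC7A5, DDIT4, ISG15 and LYZ overlap noncoding transcripts there, as do some of the others named. On the same strand, GSTM2 shares exonic bases with GSTM1 and GSTM4, RRM2 with AC007240.1 and PTGDS with AL807752.7. Same-strand overlaps of other named genes are not listed here.

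NRAS (chromosome 1, 114704469 to 114716894, minus strand of GRCh38) was at 19.8, 21.98 and 21.1 FPKM in the untreated B11 libraries A, B and C, and at 24.4, 23.7 and 23.3 at 1 ug/ml. All 3 treated libraries lay above the 3 untreated ones. The difference of log2(FPKM + 1) was 0.18 (SE 0.07, adjusted p = 0.0607) by limma and was not called at the threshold of 0.05. It did pass under 5 of 17 alternatives, for instance at an adjusted p of 0.0306 with TPM and of 0.0497 when untreated library B was left out. At 10 ug/ml the libraries held 27.99, 27.7 and 28.2 FPKM, above every library at 1 ug/ml, a difference of 0.22 (SE 0.07, adjusted p = 0.0487) that was called. In THP1 the values were 23.7, 23.01 and 23.2 untreated and 23.2, 21.5 and 25.5 at 1 ug/ml, which overlapped. The table holds 1 value for the gene, so the transgene and the endogenous locus are not separable in it. GFP was not analysed here.

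Of the 17555 genes, 6516 (37.1%) passed in B11 at 1 against 0 ug/ml, 3472 higher (19.8%) and 3044 lower (17.3%). At least 2-fold changes were called in 1158 genes higher (6.6%) and 903 lower (5.14%). The median difference over all genes was -0.01, with quartiles at -0.41 and 0.39. Under TPM computed without the unnamed ID, an alternative chosen after seeing the data, 4209 were higher and 2261 lower, so that the share of higher calls moved from 53.3% to 65.1%. The libraries of the 2 groups did not overlap in 24.3% of genes on the higher side and 23.2% on the lower side. Any count of members below is to be read against these shares.

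In THP1 the same dose gave 2 called genes (0.0114%), while 958 had an unadjusted p under 0.05. NKD2, an inhibitor of WNT signalling, rose in THP1 from 11.3, 9.31 and 10.8 to 19.8, 17.7 and 15.7 FPKM, a difference of 0.71 (SE 0.10, adjusted p = 0.0386), and in B11 from 9.86, 11.03 and 10.3 to 26.9, 25.7 and 29.2, a difference of 1.31. IGFBP3, a binding protein for insulin-like growth factors, fell in THP1 from 7.103, 8.25 and 8.59 to 2.599, 1.49 and 1.46 FPKM, a difference of -1.68 (SE 0.20, adjusted p = 0.00805). The difference between the responses of the 2 lines was itself tested, and 4544 genes (25.9%) passed, 2509 toward a higher response in B11 (14.3%) and 2035 toward a lower one (11.6%). Under TPM without the unnamed ID the split was 3148 and 1512, and the share of higher calls moved from 55.2% to 67.6%. No member of any of the 46 functional gene lists passed in THP1.

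**Figure D1:**
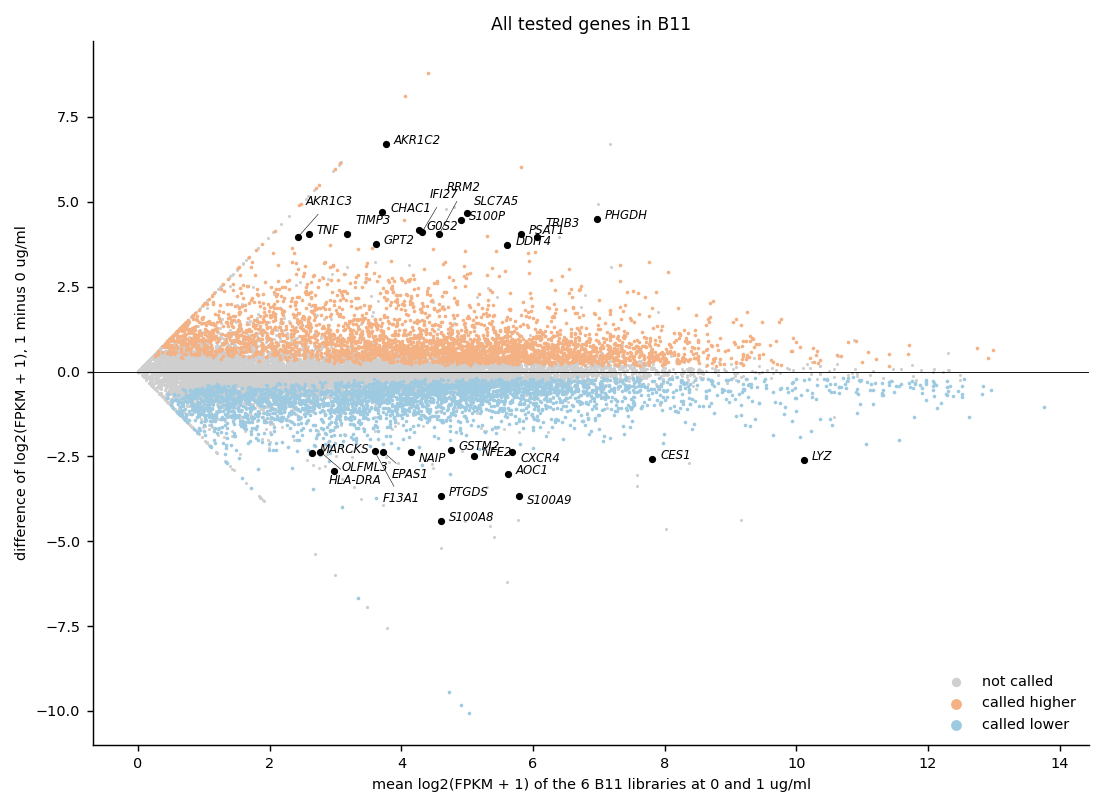
Difference of log2(FPKM + 1) between B11 at 1 and 0 ug/ml (vertical axis) against the mean log2(FPKM + 1) of the 6 libraries (horizontal axis) for 17555 genes, with 3472 called higher in orange, 3044 called lower in blue and the rest in grey. Black points with names are the genes with the largest changes by the naming rule, from AKR1C2 at 6.70 to S100A8 at -4.40.

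**Figure D2:**
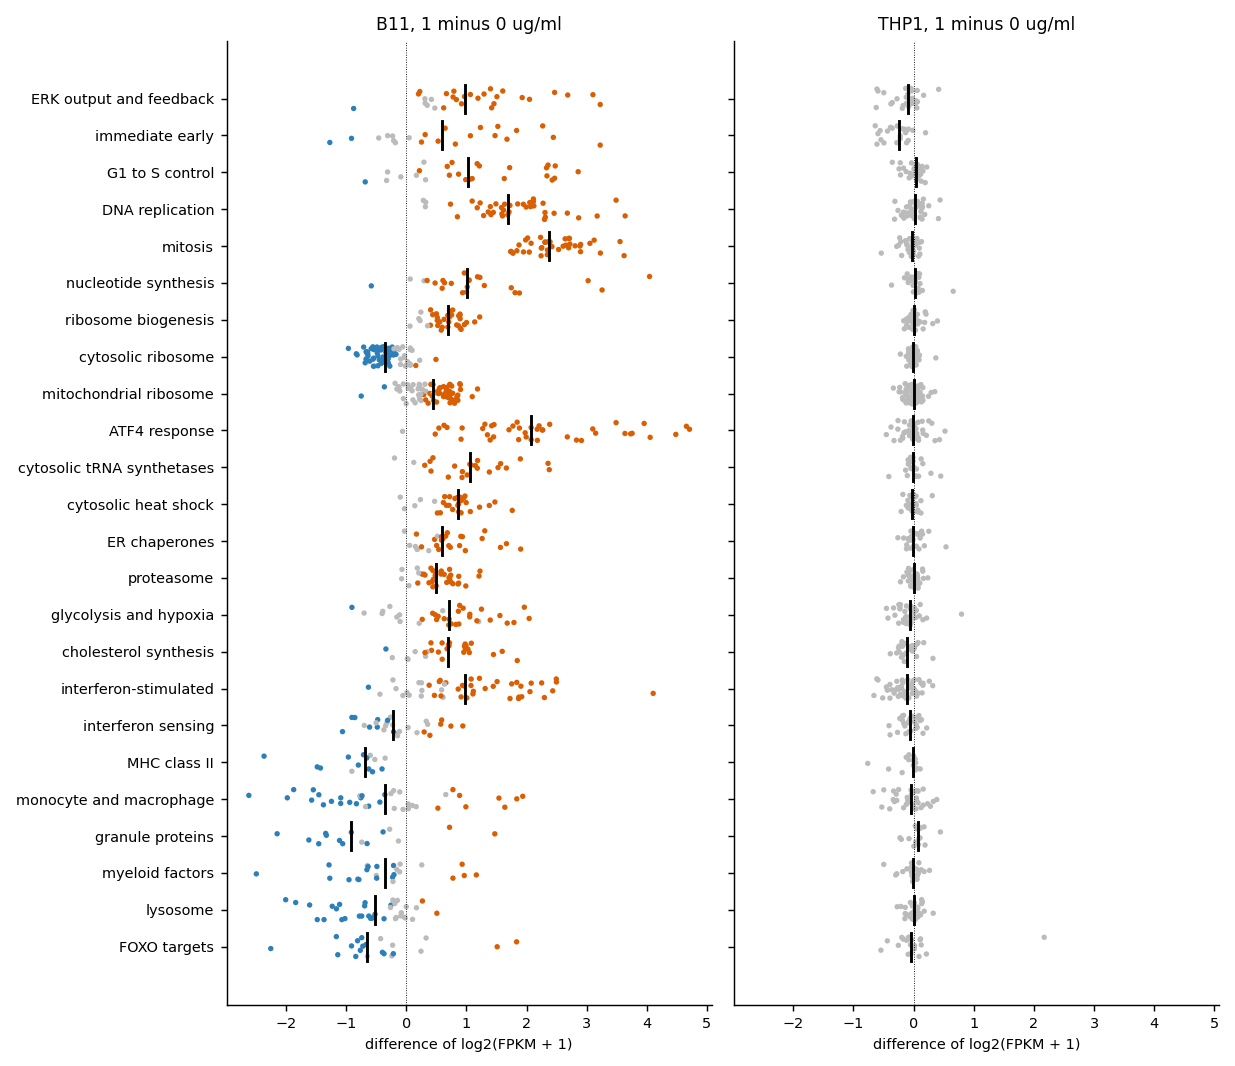
Difference of log2(FPKM + 1) at 1 minus 0 ug/ml for each tested member of 24 gene lists, in B11 (left) and THP1 (right), with members called higher in orange, called lower in blue and not called in grey, and the list median as a black bar. In B11 all 38 mitosis genes lie above 0 around a median of 2.37, and in THP1 no member is called.

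Genes of ERK output and feedback rose, with few exceptions. EGR1, an immediate early zinc finger factor, went from 1.299, 1.31 and 1.398 FPKM to 21.6, 20.3 and 20.5, a mean ratio of 15.6 and a difference of 3.22 (SE 0.12, adjusted p = 2.7e-11). DUSP6, the phosphatase that dephosphorylates ERK in the cytoplasm, went from 1.395, 1.98 and 1.64 to 22.1, 22.1 and 21.3 FPKM, a difference of 3.10 (SE 0.14, adjusted p = 2.11e-10). Neither gene's groups overlapped, and the treated libraries were close to each other. SPRY2, a Sprouty inhibitor of receptor signalling, went from 5.24, 5.39 and 4.28 to 16.3, 16.8 and 14.7, and NAB2, a corepressor of the EGR factors, from 10.7, 7.35 and 7.31 to 32.1, 33.5 and 37.9. Of 29 tested genes of ERK output and feedback, 23 rose and 1 fell, with a median of 0.97, and 20 of the 23 rose more in B11 than in THP1. PLAU, the urokinase, was the member that fell, from 24.3, 28.6 and 19.1 to 10.9, 14.2 and 12.4 FPKM, whereas its receptor PLAUR rose from 19.01, 27.4 and 19.7 to 49.7, 50.9 and 52.5. The call of PLAU (adjusted p = 0.0207) was lost in 3 of 6 fits with 1 library left out, those without untreated library A, untreated library B and treated library A (adjusted p = 0.0526, 0.0797 and 0.0715), and without treated libraries B and C (adjusted p = 0.0853), so that no member of the list was called lower there. In untreated THP1, DUSP6 was at 42.1 ± 3.45 FPKM and EGR1 at 5.09 ± 0.147 (mean ± SD, n = 3). DUSP6 in B11 at 1 ug/ml thus lay below the parent line's libraries and EGR1 above them.

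Among 22 immediate early genes, 14 rose and 2 fell, with a median of 0.59. The nuclear receptor NR4A1 went from 1.63, 4.59 and 2.49 to 16.2, 16.2 and 18.3 FPKM, the zinc finger factor KLF2 from 17.6, 21.1 and 21.2 to 68.3, 74.5 and 77.9, and the stress-inducible factor ATF3 from 0.701, 1.64 and 0.504 to 9.42, 12.9 and 6.54. All 3 were higher in each treated library than in any untreated one. KLF4, a factor of monocyte differentiation, fell from 14.7, 14.8 and 17.2 to 5.55, 5.28 and 6.804, and the antiproliferative gene BTG1 from 117, 112 and 116 to 58.1, 63.98 and 60.1. JUNB, a subunit of AP-1, was at 28.4, 25.9 and 32.2 FPKM untreated and 29.5, 27.9 and 31.9 treated and was not called (log2 difference 0.05, SE 0.08, adjusted p = 0.707). Without treated libraries B and C the median was 0.37. With median of ratios scaling 13 rose and 4 fell, and in a fit of the compared groups alone 11 rose and 3 fell. Among the 17 with a mean of at least 5 FPKM, 10 rose and 4 fell, with a median of 0.31. In THP1 no member of this list passed, and the list's median there was -0.25.

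The EGR1 promoter is shown because it holds matches to the CArG box, the core of serum response factor sites, and EGR1 is the ERK target with the largest change. The stretch runs 5′ to 3′ at chr5:138465329-138465450 on the plus strand of GRCh38.p14 (RefSeq), and capitals mark overlapping matches to CCATATNNG on either strand, which start 105, 83 and 82 bases before the transcription start.
EGR1: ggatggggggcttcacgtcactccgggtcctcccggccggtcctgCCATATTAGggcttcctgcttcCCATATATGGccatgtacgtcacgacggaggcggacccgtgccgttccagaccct
Of 19 tested immediate early genes with a RefSeq window from 250 bases before to 50 after the start, 2 (10.5%) held this motif, against 1.06% of 10474 tested genes and 1.42% of all 27305 windows. These 2 were EGR1 and SRF. Of 18 windows of ERK output and feedback genes, 1 (5.56%) held it, that of EGR1. Among all tested genes, it was in 1.02% of the windows of genes called higher, 1.47% of those called lower and 0.946% of those not called. The DUSP6 window held none.

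Of 31 tested components of the RAS and ERK cascade itself, 6 rose and 8 fell, with a median of 0.16. The share that rose was near the 19.8% of all genes called higher, and 17.3% of all genes were called lower. RPS6KA2, an ERK-activated kinase, went from 2.53, 5.18 and 3.698 to 22.4, 21.3 and 17.1 FPKM. PTPN11, the phosphatase SHP2 that relays receptor signals to RAS, went from 13.8, 14.4 and 16.6 to 22.5, 22.4 and 22.6, and the MEK gene MAP2K1 from 29.5, 22.6 and 28.05 to 38.3, 35.1 and 40.5. MAP2K1 lost its call without treated libraries B and C (adjusted p = 0.081). The adaptor GRB2 fell from 599, 616 and 613 to 432, 424 and 369 and the exchange factor RASGRP4 from 29.9, 34.3 and 28.9 to 18.1, 21.4 and 19.05. RPS6KA2 was the only one called with a 2-fold change. The split depended on the scaling: under TPM, 9 rose and 7 fell, under TPM without the unnamed ID 11 rose and 7 fell, and without treated libraries B and C 2 rose and 5 fell. Without untreated library A, treated library A or treated library C the median was 0.10, 0.09 and 0.09.

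**Figure D3:**
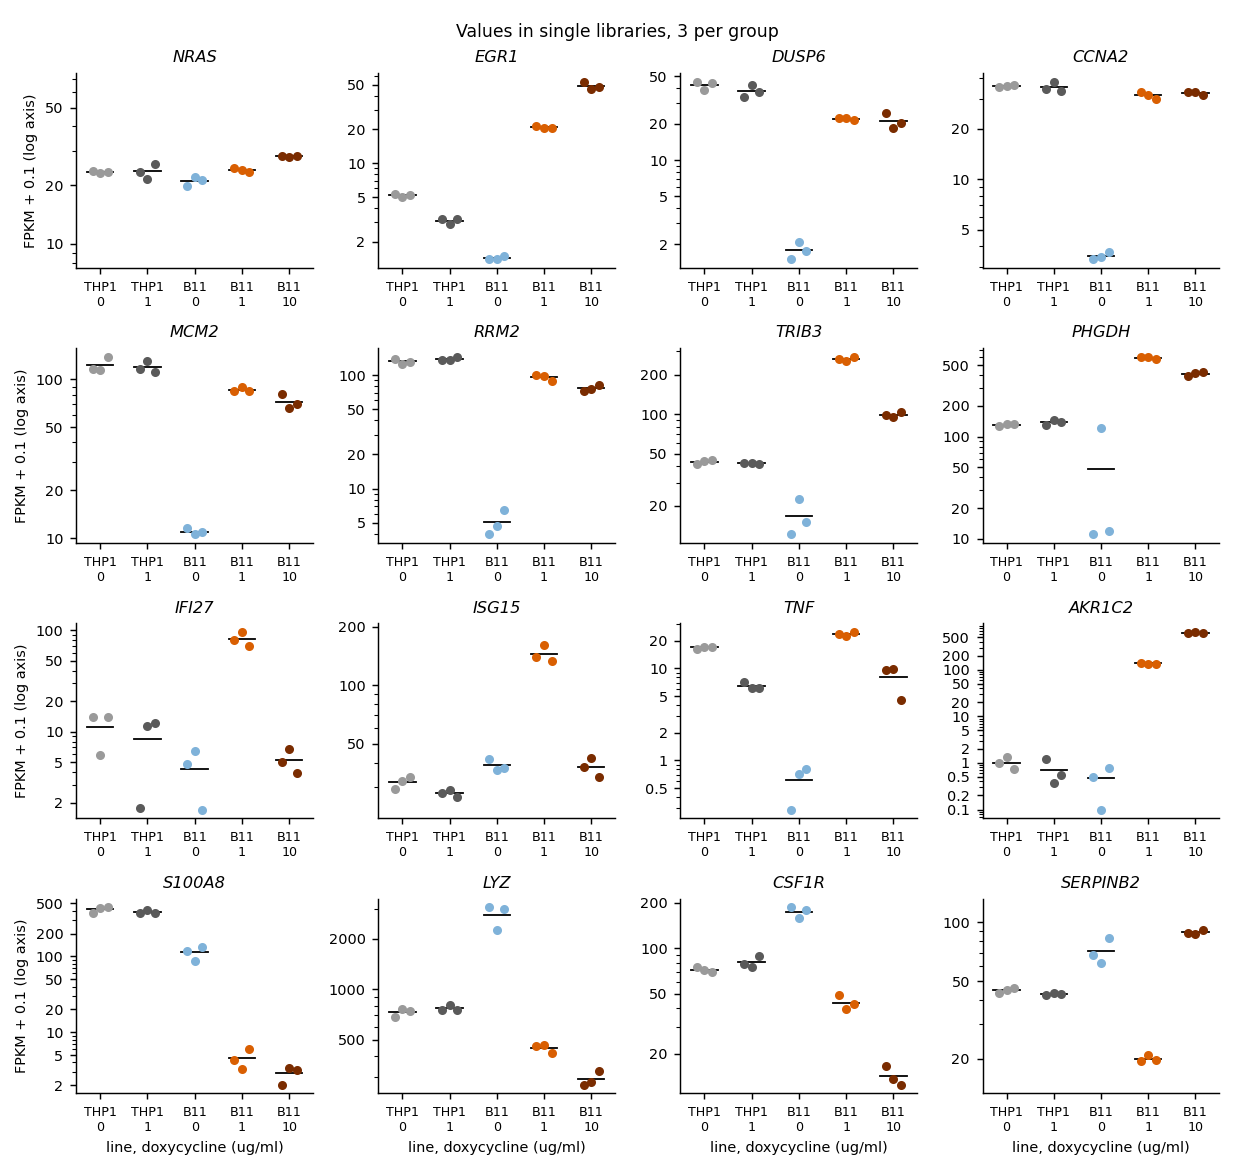
FPKM + 0.1 on log axes of 16 genes in single libraries (points, 3 per group, A to C from left to right) of THP1 at 0 and 1 ug/ml and of B11 at 0, 1 and 10 ug/ml doxycycline, with the mean as a black line. CCNA2, MCM2 and RRM2 in B11 at 1 ug/ml lie just below the THP1 libraries and far above untreated B11, IFI27 and ISG15 are highest in B11 at 1 ug/ml, and PHGDH shows the untreated library B above libraries A and C.

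All 38 tested genes of mitosis rose, and 37 of 40 of DNA replication. CCNA2, a cyclin that acts from S phase to mitosis, rose from 3.23, 3.36 and 3.59 to 33.3, 31.9 and 30.2 FPKM, a difference of 2.90 (SE 0.07, adjusted p = 1.75e-12). PLK1, a kinase of mitotic entry, rose from 13.4, 13.9 and 12.98 to 122, 116 and 117, and TPX2, a spindle assembly factor, from 8.04, 8.54 and 7.74 to 58.7, 51.04 and 53.97. In these genes the replicates lay close together and far from the other group. All 38 tested mitosis genes rose, each at least 2-fold, and the differences ran from 1.73 in PRC1 to 3.62 in MYBL2 with a median of 2.37. Their summed level was 439 to 524 FPKM per library untreated, 3059 to 3143 at 1 ug/ml and 3411 to 3740 in untreated THP1. The response of B11 exceeded that of THP1 in all 38.

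Of 40 DNA replication genes, 37 rose and none fell, with a median of 1.70. MCM2, a subunit of the replicative helicase, went from 11.4, 10.5 and 10.8 to 83.9, 88.8 and 84.1 FPKM, CDT1, which loads that helicase, from 22.1, 16.8 and 13.6 to 198, 210.0 and 201, and GINS2 from 1.12, 0.729 and 0.847 to 9.88, 11.6 and 11.9. The helicase subunit MCM7 was already at 67.04, 67.1 and 67.5 FPKM untreated and reached 218, 221 and 216. The 3 genes not called were RPA2, PRIM2 and CDC7, which were at 36.1 ± 4.73, 13.7 ± 0.819 and 17.8 ± 5.91 FPKM untreated and at 43.97 ± 1.69, 17.5 ± 2.79 and 21.7 ± 0.929 treated (mean ± SD, n = 3). Among 24 genes of nucleotide synthesis, 21 rose and 1 fell, with a median of 1.01. RRM2, the regulated subunit of ribonucleotide reductase, had the largest change of this list, from 3.84, 4.6003 and 6.41 to 99.9, 98.2 and 89.02 FPKM (log2 difference 4.04, SE 0.11, adjusted p = 4.11e-12). The enzymes of thymidine nucleotide synthesis TK1 and TYMS rose by 3.25 and 3.02 on the log2 scale, and IMPDH1, an enzyme of guanine nucleotide synthesis, fell from 121, 105 and 94.8 to 65.5, 71.5 and 75.9.

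Of 26 genes that control passage from G1 to S phase, 19 rose and 1 fell, with a median of 1.02. E2F1, the transcription factor held in check by the retinoblastoma protein, rose from 2.92, 2.71 and 2.695 to 26.6, 26.6 and 25.8 FPKM. The phosphatase CDC25A went from 0.748, 1.53 and 1.14 to 10.3, 10.7 and 10.04, and the cyclin CCNE2 from 3.25, 2.84 and 3.47 to 28.8, 25.7 and 14.8. CDKN1A, the kinase inhibitor p21, rose as well, from 9.58, 9.44 and 12.3 to 54.04, 59.6 and 58.1 FPKM (log2 difference 2.36, SE 0.11, adjusted p = 5.11e-10). RBL2, a retinoblastoma relative that represses these genes in quiescent cells, fell from 71.7, 68.9 and 70.1 to 43.7, 42.2 and 44.2. The inhibitor CDKN1B was at 26.3, 17.6 and 15.6 FPKM untreated and 19.4, 13.2 and 14.2 treated, with overlapping groups, and was not called.

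Promoter stretches of 4 of these genes are shown since the replication and mitosis genes rose together and the motifs differ between them. Capitals mark E2F site letters in CDT1 and MCM7 and the cell cycle homology region in PLK1 and CCNB2. They lie at chr16:88803709-88803788 on the plus strand, chr7:100101532-100101629 on the minus strand, chr16:23678815-23678888 on the plus strand and chr15:59105072-59105145 on the plus strand of GRCh38.p14 (RefSeq), 5′ to 3′ in the direction of the gene.
CDT1: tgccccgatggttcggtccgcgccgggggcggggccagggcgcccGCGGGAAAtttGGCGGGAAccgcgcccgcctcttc
MCM7: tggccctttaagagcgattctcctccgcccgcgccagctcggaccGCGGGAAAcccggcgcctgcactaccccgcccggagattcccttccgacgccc
PLK1: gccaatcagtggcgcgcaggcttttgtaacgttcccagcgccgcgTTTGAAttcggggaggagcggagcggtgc
CCNB2: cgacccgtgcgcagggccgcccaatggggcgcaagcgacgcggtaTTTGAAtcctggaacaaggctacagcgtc
The E2F letters (TTCCCGCC, TTTGGCGC or TTTCCCGC, either strand, overlaps allowed) were in 20 of 34 replication gene windows (58.8%), 3 of 32 mitosis gene windows (9.38%) and 7.45% of the tested genes' windows. The letters TTTGAA on either strand were in 22 of 32 mitosis gene windows (68.8%), 1 of 34 replication gene windows (2.94%) and 9.68% of the tested genes' windows. Over all 27305 windows the shares were 4.61% and 15.4%. In PLK1 and CCNB2 the match started 29 bases before the start site in both. Among all tested genes, E2F letters were in 11.4% of the windows of genes called higher, 4.16% of those called lower and 6.8% of those not called.

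MYC, the transcription factor that drives cell growth and an ERK-stabilized protein, rose from 75.1, 68.9 and 65.98 to 108, 114 and 112 FPKM (log2 difference 0.67, SE 0.06, adjusted p = 2.99e-07), and in THP1 it was at 135, 143 and 134 untreated and 138, 138 and 127 at 1 ug/ml. All B11 libraries lay below those of THP1. MXD4, a MYC antagonist, and MLXIP, a nutrient-sensing factor of the same network, fell from 55.1, 46.03 and 52.8 to 22.1, 23.1 and 25.8 and from 38.6, 39.02 and 37.1 to 19.6, 17.5 and 20.2. Of 11 tested genes of the network, 3 rose and 3 fell, where 19.8% of all genes were called higher and 17.3% lower. The number that fell was 2 without untreated library A or B and without any one of the treated libraries. It was 4 without untreated library C, with median of ratios scaling and with a mean of at least 5 FPKM. Of 36 ribosome biogenesis genes, 30 rose and none fell, with a median of 0.69. NCL, the nucleolar protein nucleolin, went from 394, 387 and 397 to 748, 716 and 694 FPKM and NOP56, a core protein of box C/D particles, from 90.1, 93.2 and 107 to 157, 158 and 155. The E-box letters CACGTG were in 10 of 29 of their promoter windows (34.5%), against 10.2% of the tested genes' windows and 7.43% of all windows. Among all tested genes, they were in 11% of the windows of genes called higher, 9.32% of those called lower and 10.1% of those not called.

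Proteins of the cytosolic ribosome went the other way. Of 73 genes, 53 fell and 2 rose, with a median of -0.36, and none changed 2-fold. RPS3A went from 1621, 1726 and 1691 to 984, 939 and 935 FPKM, RPL34 from 2529, 2969 and 2894 to 1538, 1326 and 1438 and RPS27 from 9354, 8977 and 8988 to 5528, 5918 and 5731. In each case the 3 untreated libraries lay above the 3 treated ones. RPS26 rose from 109, 109 and 106 to 146, 152 and 159 and RPS19 from 2549, 2556 and 2649 to 2752, 2971 and 2933. The call of RPS19 (adjusted p = 0.0228) was lost without untreated library A or B and without treated library B or C, with adjusted p = 0.0659, 0.0613, 0.087 and 0.0731, and without treated libraries B and C together (adjusted p = 0.42). Under TPM without the unnamed ID, 47 fell and 7 rose, with a median of -0.24. These short, abundant genes have many processed pseudogenes, and the sources used here do not say how reads were shared among copies.

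Mitochondrial genes divided by genome. Of 75 nuclear genes of the mitochondrial ribosome, 45 rose and 2 fell (median 0.45), and among 74 nuclear-encoded oxidative phosphorylation genes the numbers were 37 and 7 (median 0.30). Without treated libraries B and C the latter were 27 and 4, and under TPM without the unnamed ID 47 and 4. MRPL37 went from 86.2, 86.3 and 78.9 to 176, 190.1 and 175 FPKM, and the cytochrome c gene CYCS from 67.9, 54.1 and 69.4 to 128, 154 and 141. ATP5F1E, the epsilon subunit of ATP synthase, fell from 289.8, 277 and 297 to 161, 159.6 and 169 and UQCRB of complex III from 535, 580.3 and 608 to 403, 384 and 358. Of the 13 mitochondrially encoded genes, 7 fell and none rose (median -0.35). MT-CO1, a core subunit of cytochrome oxidase, went from 7288, 5577 and 6268 to 3578, 4083 and 4117 FPKM. Library A was the highest untreated library in 12 of the 13, and the mitochondrial share of FPKM was 5.58, 4.38 and 4.50% untreated and 3.93, 3.86 and 4.02% treated. Without library A, 5 of the 13 fell and the median was -0.21, and under TPM without the unnamed ID 5 fell with a median of -0.22.

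Genes of the ATF4 stress response rose in nearly every case. ATF4 is the transcription factor made when the initiation factor eIF2 is phosphorylated, and its targets import and make amino acids. Of 43 tested genes, 42 rose and none fell, with a median of 2.08, and 41 rose more in B11 than in THP1. Their summed level was 1282, 2296 and 1320 FPKM in the untreated libraries A, B and C, 6533, 6457 and 6365 at 1 ug/ml, and 2545 to 2637 in untreated THP1. Without library B the count was the same and the median was 2.36.

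TRIB3, a pseudokinase induced by ATF4, went from 12.03, 22.6 and 15.03 to 264, 254 and 271 FPKM (log2 difference 3.95, SE 0.15, adjusted p = 3.8e-11), and DDIT4, an inhibitor of mTORC1, from 11.1, 12.5 and 13.9 to 181, 173 and 177. Library B was close to A and C in DDIT4 and higher in TRIB3. PHGDH, the first enzyme of serine synthesis, was at 10.99, 121 and 11.8 FPKM untreated and 598, 598 and 579.9 treated. PSAT1, the next enzyme, was at 6.48, 43.9 and 6.904 untreated and 234, 233 and 221 treated. CHAC1, which degrades glutathione, was at 0.327, 9.097 and 0.2502 untreated and 61.8, 67.5 and 68.6 treated, and SLC7A5, a transporter of large neutral amino acids, rose from 3.45, 15.2 and 2.51 to 159.8, 160.2 and 156. In these 4 genes library B lay several-fold above A and C but still below all treated libraries. MTHFD2, a mitochondrial folate enzyme, went from 52.9, 85.6 and 53.8 to 433, 389 and 394 FPKM, the alanine aminotransferase GPT2 from 1.199, 4.399 and 2.07 to 42.2, 47.5 and 41.8, and SESN2, a leucine sensor upstream of mTORC1, from 6.23, 9.69 and 6.41 to 35.5, 37.5 and 36.7. ATF4 itself, named here after its values were seen, rose by 1.45 on the log2 scale, from 191, 388 and 199 to 651, 698 and 670.1 FPKM. VLDLR, a lipoprotein receptor, was the member that did not pass, at 53.1, 60.3 and 48.02 untreated and 53.1, 50.5 and 50.3 treated.

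Of 23 cytosolic tRNA synthetase genes, 21 rose and none fell (median 1.06), whereas 4 rose and 2 fell among 17 mitochondrial ones (median 0.24). GARS went from 61.1, 114 and 71.1 to 373, 479 and 402 FPKM and MARS from 227, 329.6 and 194 to 552, 686 and 679. Untreated library B was again the highest in both, and in 16 of the 23. QARS, at 431, 382 and 422 untreated and 349, 378 and 351 treated, was not called. It passed as lower by limma without untreated library B (adjusted p = 0.0479). In that fit 20 of the 23 rose and 1 fell (median 1.10). Over all genes in the main fit, 19.8% were called higher and 17.3% lower.

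**Figure D4:**
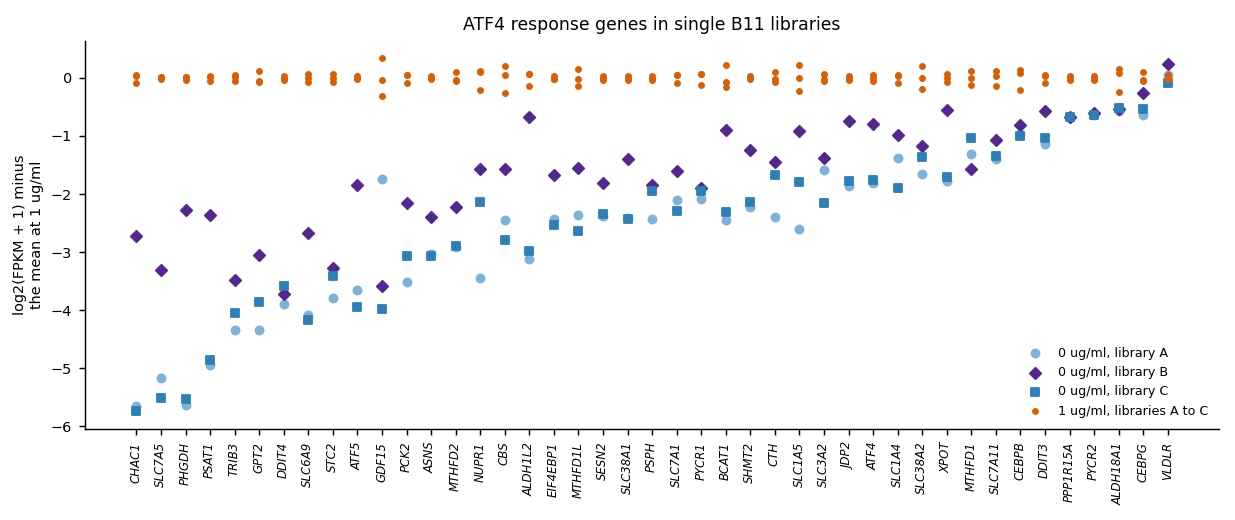
Log2(FPKM + 1) of each of 43 ATF4 response genes in single B11 libraries, minus the gene's mean at 1 ug/ml, with the genes ordered by the mean difference. Untreated library B (diamonds) lies above untreated libraries A and C in 38 of 43 genes, and the 1 ug/ml libraries (orange) lie close to 0.

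The promoters of CHAC1 and ASNS, the asparagine synthetase, are shown because both rose and hold the letters of the CCAAT enhancer binding protein and ATF response element. They lie at chr15:40953221-40953314 on the plus strand and chr7:97872424-97872521 on the minus strand of GRCh38.p14 (RefSeq), 5′ to 3′ in the direction of the gene, with capitals on the match to TGATGNAA on either strand, 209 and 68 bases before the start.
CHAC1: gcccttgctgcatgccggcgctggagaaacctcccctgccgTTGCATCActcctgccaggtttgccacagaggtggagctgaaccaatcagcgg
ASNS: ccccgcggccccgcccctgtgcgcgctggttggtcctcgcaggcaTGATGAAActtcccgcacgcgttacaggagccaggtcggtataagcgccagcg
ASNS, chosen for its promoter, went from 13.6, 21.8 and 13.2 to 120.3, 117 and 117 FPKM. The letters were in 7 of 34 ATF4 response windows (20.6%) and 6 of 19 synthetase windows (31.6%), against 1.68% of the tested genes' windows and 3.67% of all windows. The TRIB3 window held none.

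Chaperones and the proteasome rose together by smaller steps. Of 29 cytosolic and mitochondrial heat shock genes, 24 rose and none fell (median 0.86), of 28 genes of the endoplasmic reticulum and its unfolded protein response, 21 rose and none fell (median 0.60), and of 34 proteasome genes, 29 rose and none fell (median 0.50). HSPA9, the mitochondrial HSP70, went from 309.9, 344 and 341 to 1069.7, 1204 and 1105 FPKM, and the small heat shock protein HSPB1 from 526, 485 and 524 to 1316, 1491 and 1459. HYOU1, a chaperone of the endoplasmic reticulum, went from 38.8, 34.97 and 35.03 to 109, 108 and 111, and XBP1, the factor spliced by IRE1, from 41.3, 59.9 and 49.3 to 179.8, 187 and 198. HSF1, the main heat shock factor, was at 149, 111 and 136 untreated and 123, 132 and 131 treated and was not called (log2 difference -0.03, SE 0.11, adjusted p = 0.869).

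In central metabolism, the 35 genes of glycolysis and hypoxia held 24 that rose and 1 that fell (median 0.71). LDHA, which makes lactate, went from 212, 186 and 195 to 644, 669.9 and 593 FPKM, and the glucose transporter SLC2A1 from 55.6, 49.5 and 57.5 to 114, 116 and 111. Of 28 cholesterol synthesis genes, 21 rose and 1 fell (median 0.69). INSIG1, which retains the sterol sensor in the endoplasmic reticulum and is itself induced when sterols are low, went from 34.4, 31.6 and 36.9 to 106, 109 and 102, and the squalene epoxidase SQLE from 15.1, 16.002 and 15.7 to 35.9, 31.6 and 28.01. SQLE remained below untreated THP1, at 108 ± 4.54 FPKM. Of 21 genes of fatty acid synthesis and of the sterol receptor LXR, 11 rose and 4 fell (median 0.49), and without treated libraries B and C 9 rose and 2 fell. FADS2 and FADS1, the desaturases of polyunsaturated fatty acids, went from 32.8, 32.99 and 29.5 to 216, 245 and 227 and from 14.7, 14.9 and 21.6 to 101, 88.2 and 88.2. NR1H3, which encodes LXR alpha, fell from 77.8, 56.2 and 74.2 to 29.99, 30.2 and 31.997.

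Interferon-stimulated genes rose at the low dose. IFI27, a mitochondrial interferon-induced protein, was at 4.74, 6.36 and 1.61 FPKM untreated and 80.3, 95.8 and 70.2 at 1 ug/ml (log2 difference 4.10, SE 0.55, adjusted p = 2.86e-05). ISG15, a ubiquitin-like modifier, went from 41.8, 36.7 and 37.7 to 140.2, 161 and 133, IFI6 from 66.8, 58.9 and 73.7 to 220.2, 237 and 207, and OASL, of the oligoadenylate synthetase family, from 0.931, 1.08 and 0.733 to 9.76, 10.01 and 9.48. The groups did not overlap in any of these 4 genes. Of 48 tested interferon-stimulated genes, 34 rose and 1 fell, with a median of 0.98, and 30 rose more in B11 than in THP1. The summed level was 1467, 1451 and 1559 FPKM untreated, 2671, 2813 and 2539 at 1 ug/ml, and 1243, 1281 and 1317 at 10 ug/ml. SP100, a nuclear body protein, fell from 54.1, 61.7 and 58.98 to 40.5, 36.3 and 35.04, a call lost without treated libraries B and C (adjusted p = 0.0948). IFITM2 and ADAR were at similar levels in both groups and not called, with differences of 0.05 (SE 0.09) and 0.21 (SE 0.12). In THP1 no member passed, though IFI6 was at 111, 111 and 110.4 FPKM untreated and 85.9, 79.4 and 79.4 at 1 ug/ml, a difference of -0.44 (SE 0.07, adjusted p = 0.0768).

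Of 28 tested sensors and transducers of interferon, 6 rose and 8 fell, with a median of -0.22, and the share that rose was near that over all genes. Under TPM without the unnamed ID 7 rose and 5 fell (median -0.09), and without treated libraries B and C 2 rose and 6 fell. IRF7, a factor that amplifies interferon responses, rose from 51.7, 38.04 and 46.6 to 65.9, 67.9 and 68.8 FPKM, while STAT2, a factor of the complex that binds interferon response elements, fell from 189, 174 and 171 to 89.3, 83.7 and 81.95. IRF5 fell from 147, 139 and 143 to 74.2, 80.98 and 72.7 and the kinase TYK2 from 383, 371 and 477 to 206, 220.0 and 252. The call of IRF7 was lost without treated libraries B and C (adjusted p = 0.0728). TMEM173, the STING adaptor of cytosolic DNA sensing, fell from 927, 848 and 856 to 615, 615 and 661.

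Promoters of IFI27, ISG15 and IFI6 are shown because these genes rose at 1 ug/ml and were back near or below the untreated level at 10 ug/ml. Capitals mark the interferon-stimulated response element letters GAAANNGAA on either strand, overlaps allowed, in windows at chr14:94110584-94110694 on the plus strand, chr1:1013339-1013449 on the plus strand and chr1:27672232-27672393 on the minus strand of GRCh38.p14 (RefSeq), 5′ to 3′ in the direction of the gene.
IFI27: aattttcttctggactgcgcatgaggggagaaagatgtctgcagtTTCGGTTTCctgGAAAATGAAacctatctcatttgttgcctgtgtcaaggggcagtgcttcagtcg
ISG15: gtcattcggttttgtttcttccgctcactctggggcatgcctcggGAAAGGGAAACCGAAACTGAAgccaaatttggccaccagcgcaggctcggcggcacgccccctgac
IFI6: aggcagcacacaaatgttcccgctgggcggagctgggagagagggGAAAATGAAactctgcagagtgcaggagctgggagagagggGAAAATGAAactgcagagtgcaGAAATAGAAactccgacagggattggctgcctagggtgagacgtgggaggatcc
The matches started 107 and 95 bases before the start of IFI27, 113, 107 and 101 before ISG15, and 156, 115 and 93 before IFI6. The letters were in 25 of 39 interferon-stimulated gene windows (64.1%), 6.62% of the tested genes' windows and 8.29% of all windows. Among all tested genes they were in 6.79% of windows of genes called higher and 7.16% of those called lower.

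Of 17 class I antigen presentation genes, 5 were higher and 5 lower (median -0.06), and 3 higher and 4 lower without treated libraries B and C. B2M, the light chain of all class I molecules, fell from 6172, 6493 and 6987 to 3265, 3050.5 and 3006 FPKM (log2 difference -1.07, SE 0.07, adjusted p = 1.11e-08), and the heavy chain genes HLA-B and HLA-C fell by 0.60 and 0.77 on the log2 scale. The proteasome activator PSME2 rose from 173, 168 and 163 to 274, 278 and 293 and the immunoproteasome subunit PSMB8 from 111, 115 and 127 to 164, 158 and 167. Of 14 tested class II genes, 10 fell and none rose (median -0.68). HLA-DRA went from 19.6, 10.8 and 14.2 to 2.17, 2.52 and 1.43, and the class II protease CTSS from 510.0, 547 and 533 to 207, 189.5 and 173. CIITA, the class II transactivator, was at 0.659, 1.004 and 0.631 FPKM untreated and 0.3301, 0.131 and 0.213 treated and was not called (adjusted p = 0.0794 by limma). It passed as lower with a pseudocount of 0.1 (adjusted p = 0.0444) and in a fit of the compared groups alone (adjusted p = 0.036). Reads of the polymorphic HLA genes may be shared among near-identical copies.

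Genes of mature monocytes and granules fell in larger number than they rose. Of 37 tested monocyte and macrophage genes, 17 fell and 8 rose (median -0.36), and of 15 tested granule protein genes, 10 fell and 2 rose (median -0.91). LYZ, which encodes lysozyme, went from 3075, 2258 and 3009 to 463, 464 and 419 FPKM (log2 difference -2.62, SE 0.11, adjusted p = 1.78e-10). CSF1R, through which macrophage colony-stimulating factor acts, went from 186, 159 and 178 to 48.8, 39.4 and 42.4, and TYROBP, a signalling adaptor of myeloid receptors, from 1578, 1411 and 1601 to 418, 446 and 388. In each the untreated libraries lay above the treated ones. AZU1 and ELANE, antimicrobial proteins of primary granules, fell from 10413, 9478 and 10340.0 to 3658, 4259 and 4034 and from 6863, 5983 and 6623 to 3244, 3594 and 3483. PRTN3, their neighbour and proteinase 3, was at 4165, 3056 and 3905 untreated and 3045, 3779 and 3291 treated. Its groups overlapped and it was not called, although it passed without untreated library B (adjusted p = 0.00983).

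Some monocyte genes rose against that majority, 8 of 37, a share near the 19.8% of all genes called higher. FCER1G, the gamma chain of Fc receptors, went from 478, 541 and 512 to 1474, 1496 and 1480.0 FPKM, FCGR1A, the high-affinity IgG receptor, from 22.2, 21.96 and 19.97 to 72.4, 68.98 and 64.6, and the lipopolysaccharide receptor CD14 from 1.01, 0.844 and 0.669 to 5.63, 6.197 and 6.26. ITGAM, the alpha chain of the integrin Mac-1, rose from 3.26, 2.17 and 4.68 to 24.5, 28.4 and 30.7. It belongs to another list, of integrin and adhesion genes, where 4 of 16 tested rose and 4 fell. Differences in that list ran from -1.50 in SELPLG to 2.76 in ITGAM, with a median of 0.02. FCER1G, FCGR1A, CD14 and ITGAM were each separated from the untreated libraries. CD14 in B11 stayed below untreated THP1, at 11.3 ± 0.862 FPKM.

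The S100 family held the largest fall and one of the largest rises. S100A8 and S100A9, the subunits of calprotectin, went from 118, 86.6 and 134 to 4.19, 3.15 and 5.98 FPKM (log2 difference -4.40, SE 0.19, adjusted p = 1.57e-10) and from 216, 157 and 218 to 14.5, 12.4 and 16.8 (log2 difference -3.66, SE 0.17, adjusted p = 3.37e-10). S100P, a calcium-binding protein first found in placenta, went from 7.15, 4.26 and 4.95 to 140.4, 132 and 146 (log2 difference 4.47, SE 0.19, adjusted p = 1.45e-10). Both calprotectin genes were higher still in THP1, at 417 ± 39.7 and 896 ± 62.4 FPKM untreated. S100A4 and S100A6 fell by 1.23 and 1.05 on the log2 scale, and S100A10 rose from 59.1, 58.8 and 50.2 to 117, 119 and 119.

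Lysosome genes fell with the monocyte genes, 21 of 36 lower and 2 higher (median -0.53). GRN, the progranulin precursor, went from 6318, 5609 and 6178 to 1415, 1596 and 1496 FPKM (log2 difference -2.01, SE 0.06, adjusted p = 1.15e-11), PSAP, the precursor of saposins, from 1222, 1024 and 1069 to 373, 345 and 365, and the mannosidase MAN2B1 from 536, 451 and 454 to 131, 127 and 141. At 1 ug/ml the list summed to 7609 to 7746 FPKM, against 15200 to 16818 untreated and 6550 to 6905 in untreated THP1. Among 17 tested complement genes, 8 fell and 3 rose, and 5 fell without treated libraries B and C. CFD, the protease of the alternative pathway, fell from 4187, 4529.7 and 4752 to 886, 1073 and 1088, and CFP, which encodes properdin, from 241, 306 and 236 to 64.1, 71.7 and 72.2. The anaphylatoxin receptors C5AR1 and C3AR1 rose, from 0.637, 1.07 and 0.418 to 4.105, 3.496 and 3.99 and from 0.975, 2.26 and 0.513 to 6.15, 7.002 and 8.29.

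Of 24 tested transcription factors of the myeloid lineage, 13 fell and 4 rose (median -0.36). NFE2 went from 85.6, 75.3 and 80.5 to 14.2, 14.04 and 12.2 FPKM (log2 difference -2.49, SE 0.09, adjusted p = 1.91e-11) and CEBPA from 211, 197 and 210.0 to 138, 149.7 and 151. CEBPB, which acts in stress-driven monocyte output, rose from 16.4, 18.4 and 15.9 to 28.5, 34.8 and 36.1, and GATA2, a factor of haematopoietic progenitors, from 7.23, 5.63 and 4.198 to 12.1, 11.4 and 11.98. GFI1 and LMO2 were not called, with differences of -0.11 (SE 0.06) and -0.10 (SE 0.05). Of 14 tested growth factor receptors and ligands, 7 fell and 1 rose. CSF3R fell from 249.8, 217 and 231 to 102, 118 and 113, FLT3 from 45.8, 42.02 and 40.3 to 32.6, 28.8 and 36.1 and KIT from 1.99, 1.35 and 1.77 to 0.161, 0.136 and 0.113, while the ligand CSF1 rose from 0.202, 0.706 and 0.281 to 2.16, 1.02 and 1.16. CSF1 (adjusted p = 0.0176) lost its call without untreated library A, untreated library C or treated library A, with adjusted p = 0.0663, 0.054 and 0.0897.

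TNF, the inflammatory cytokine, rose from 0.192, 0.612 and 0.711 to 23.5, 22.6 and 24.6 FPKM (log2 difference 4.05, SE 0.21, adjusted p = 1.17e-09). In THP1 it was at 16.3, 17.1 and 17.04 untreated and 6.93, 6.04 and 6.03 at 1 ug/ml, a difference of -1.28 (SE 0.21, adjusted p = 0.0768). The responses differed by 5.33 (SE 0.30, adjusted p = 8.18e-09). CCL5, a chemokine for T cells and monocytes, went from 39.3, 46.3 and 46.8 to 238, 235 and 240.4, and the monocyte chemokine CCL2 from 0, 0 and 0.152 to 1.83, 2.12 and 2.18, whereas CCL2 in THP1 was at 10.2, 9.79 and 9.96 untreated and 3.79, 2.94 and 4.04 treated. Of 23 tested cytokine genes, 9 rose and 2 fell in B11 (median 0.13), and without treated libraries B and C 8 rose and none fell. The median was 0.53 without untreated library B, 0.06 without untreated library C, 0.08 without treated library A, 0.23 without treated library B and 0.69 with a pseudocount of 0.1. In all, 12 had a higher response in B11 than in THP1, where the median was -0.25. Of 18 NF-kB genes, 5 rose and 2 fell, and 3 rose and 1 fell without treated libraries B and C. Over all genes, 19.8% were called higher and 17.3% lower. TNFAIP2 fell from 197, 205 and 187 to 85.3, 84.5 and 95.9, and the feedback inhibitor TNFAIP3 rose from 6.91, 9.32 and 7.29 to 18.5, 17.4 and 12.1. NFKBIA was not called in B11, at 77.8, 94.5 and 80.3 FPKM untreated and 67.4, 65.3 and 74.8 treated.

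Single genes outside these programmes had some of the largest values. AKR1C2, an aldo-keto reductase of steroid metabolism on chromosome 10, was at 0.409, 0 and 0.692 FPKM untreated and 139, 137 and 137 at 1 ug/ml (log2 difference 6.70, SE 0.28, adjusted p = 9.84e-11). AKR1C3 was at 1.54, 0 and 0 untreated and 17.6, 20.6 and 22.5 treated, and AKR1C1 was at 7.84, 8.81 and 11.7 treated, with each untreated library listed at 0. In THP1 at 1 ug/ml AKR1C2 was at 1.13, 0.279 and 0.441. The 3 genes are close copies, and the split of reads among them is uncertain. Other NRF2-related genes were mixed, with 10 of 20 higher and 5 lower (median 0.28). Without untreated library B 6 were higher, and without treated libraries B and C 6 were higher and 2 lower. NQO1, a quinone reductase, rose from 11.2, 8.73 and 10.7 to 34.1, 28.5 and 29.4 and PRDX1, a peroxiredoxin, from 293, 331 and 321 to 518, 504 and 489, while the ferritin light chain FTL fell from 7769.9, 7058 and 7877 to 4525, 4529 and 4525.

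G0S2, an inhibitor of triglyceride lipase, rose from 1.71, 6.705 and 3.42 to 84.1, 77.4 and 80.9 FPKM, and TIMP3, an inhibitor of matrix metalloproteinases, from 0.641, 1.69 and 1.499 to 35.3, 36.2 and 36.1. PTGDS, which makes prostaglandin D2, fell from 96.4, 74.4 and 86.9 to 7.54, 5.46 and 4.602, AOC1, a diamine oxidase, from 160.2, 124 and 135 to 14.5, 18.3 and 15.8, and the carboxylesterase CES1 from 547, 540.4 and 551 to 82.8, 96.6 and 95.1. The chemokine receptor CXCR4, which holds myeloid cells in the marrow, fell from 117, 116 and 113 to 22.8, 20.99 and 21.2. None of these groups overlapped. OLFML3, MARCKS, NAIP, EPAS1, F13A1 and GSTM2 also met the rule for naming by size, with differences from -2.94 in OLFML3 to -2.32 in GSTM2.

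The 10 ug/ml libraries show which changes held and which did not. This comparison shares the 1 ug/ml B11 libraries with the one above. That of the B11 with the THP1 response shares both the untreated and the 1 ug/ml B11 libraries with it. Their counts are thus not independent, and each comparison's own values are set side by side. From 1 to 10 ug/ml, 2249 genes (12.8%) passed, 999 higher (5.69%) and 1250 lower (7.12%). The count fell to 1487 when library C of the 1 ug/ml group was left out, and to 1482 when library C of the 10 ug/ml group was. CCNA2 was at 33.2, 33.05 and 31.7 FPKM at 10 ug/ml and DUSP6 at 24.5, 18.3 and 20.1, near their levels at 1 ug/ml, and neither was called. Of 38 mitosis genes 1 was higher and 4 were lower at 10 ug/ml, with a median of 0.01.

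Interferon-stimulated genes were lower at 10 than at 1 ug/ml in 38 of 48 cases and higher in none, with a median of -1.23. IFI27 was at 4.91, 6.62 and 3.85 FPKM and ISG15 at 37.8, 42.3 and 33.6, levels like those of the untreated libraries, and IFI6 was at 39.4, 38.9 and 39.7, below them. ATF4 response genes were lower in 17 of 43 and higher in none (median -0.52), with TRIB3 at 97.9, 95.5 and 104 FPKM, which is still above the untreated libraries. Monocyte and macrophage genes were lower in 23 of 37 and higher in 1 (median -0.61). FCER1G was at 871, 897 and 765 and CD14 at 0.868, 1.296 and 0.764, both called lower than at 1 ug/ml, and CSF1R went further down to 16.4, 13.6 and 12.4.

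Other genes went further up or turned at the higher dose. EGR1 reached 52.7, 46.2 and 48.1 FPKM, AKR1C2 621, 644 and 626 and TERT, the catalytic subunit of telomerase, 30.9, 31.9 and 26.9, after 1.15, 0.409 and 0.485 untreated and 14.9, 14.7 and 13.6 at 1 ug/ml. SERPINB2, an inhibitor of plasminogen activators, was at 67.9, 62.04 and 83.5 FPKM untreated, 19.3, 20.7 and 19.7 at 1 ug/ml and 88.6, 87.4 and 90.9 at 10 ug/ml, so it fell at the low dose and was higher again at the high one. Cytosolic ribosomal protein genes were higher at 10 than at 1 ug/ml in 33 of 73 and lower in none (median 0.22).

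**Figure D5:**
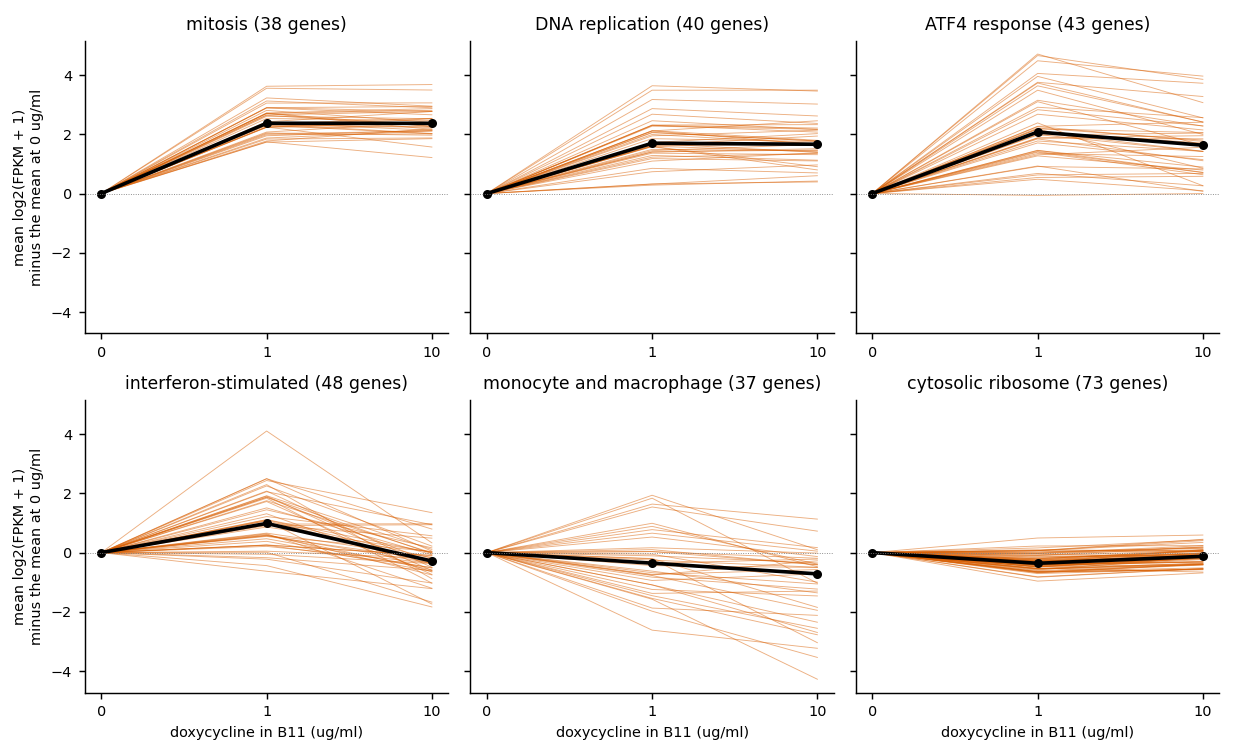
Mean log2(FPKM + 1) of each gene in B11 at 0, 1 and 10 ug/ml doxycycline (equally spaced on the horizontal axis), minus its mean at 0 ug/ml, for 6 gene lists, with single genes in orange and the list median in black. Mitosis and DNA replication genes stay near their 1 ug/ml level at 10 ug/ml, interferon-stimulated genes return toward 0, and monocyte and macrophage genes go further down.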

How the data were processed

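RNA was sequenced from 18 plates, 3 each of THP1 and B11 at 0, 1 and 10 ug/ml doxycycline. Per the submitters' processing notes, the authors aligned reads with HISAT2 to GRCh38 and made the deposited table with Cuffnorm. The deposited values, 1 per gene ID and library, are taken as FPKM, because the notes name Cuffnorm and the values are not whole numbers. The sources used here do not state tool versions, annotation, strand or scaling option, and counts were not used. IDs were named from GENCODE 29 (57047 of 60658). Replicate letters were taken from the sample titles.

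Genes with at least 1 FPKM in 3 of 18 libraries were fitted as log2(FPKM + 1) by limma 3.58.1 in R 4.3.3, with 6 group means, 12 residual degrees of freedom and an intensity trend. Differences are on that scale and understate the change of low genes. P-values were two-sided and adjusted by Benjamini-Hochberg over all genes of each of 4 comparisons, with a threshold of 0.05. Their spread is that between plates. Depth is known only relatively, so no counting intervals are given. The fit was tested on simulated data.

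Named were NRAS, the 15 protein-coding genes with the largest called change in each direction (a mean of at least 5 FPKM in the higher group, groups not overlapping), the 8 in each direction for the difference between lines, and from each of 46 lists up to 6 called genes of smallest p, 3 called the other way and the 3 most abundant not called, or all members of lists of up to 14. Exceptions are said where they occur, and some genes that the rule names are not reported here. The comparison, its gene lists and motifs were chosen with earlier results of these data known. Alternatives covered the pseudocount, filters, scalings, variance trend, libraries in the fit, the replicate letter and each library left out. RefSeq promoter windows (GRCh38.p14) were searched for exact letters on both strands.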

Additional observations from a re-analysis of the deposited data

Results flagged for a closer look

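The difference between the responses of B11 and THP1 to 1 ug/ml doxycycline was tested directly by limma, and 4544 genes passed. The genes with the largest differences are given here as the B11 response minus the THP1 response on the log2 scale. Toward a larger rise in B11 these were AKR1C2 (6.97), U2AF1 (5.64), TNF (5.33), CHAC1 (4.79), S100P (4.75), IFI27 (4.70), SLC7A5 (4.63) and PHGDH (4.40). Toward a larger fall they were S100A8 (-4.30), S100A9 (-3.53), PTGDS (-3.40), OLFML3 (-3.19), AOC1 (-2.94), MAP3K12 (-2.77), LYZ (-2.69) and NFE2 (-2.54).

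U2AF1, a splicing factor with a near-identical gene copy, was at 0.696, 7.09 and 0.654 FPKM in untreated B11 and 11.7, 24.6 and 27.3 at 1 ug/ml, and at 12.8, 0.415 and 35.5 untreated and 0.509, 0.173 and 0.309 treated in THP1. Its replicates spread widely, and in B11 alone it was not called (log2 difference 2.89, SE 1.11, adjusted p = 0.0535). MAP3K12, a kinase of the JNK pathway, was at 4.67, 6.92 and 11.6 FPKM untreated and 0.375, 0.939 and 1.52 treated in B11, and at 2.86, 2.27 and 4.85 and 19.9, 2.35 and 3.02 in THP1, and shares exonic bases with PCBP2 on the other strand.

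An ID that the GENCODE table does not name stood at 76850 FPKM in library B and 42501 FPKM in library C of B11 at 1 ug/ml, and at or below 1.95e-37 in each of the other 16 libraries. It was not tested.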

How the results depend on the processing

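The number of genes called in B11 at 1 against 0 ug/ml was 6516, and other pseudocounts, filters, scalings and variance settings gave 5176 to 6565. With the replicate letter as a block it was 6174, and with 1 library left out 5551 to 5905. The letters do not pair the plates: same-letter deviations of untreated and 1 ug/ml B11 libraries correlated at -0.061 to -0.013, and the block is given here only. Without treated libraries B and C, chosen after seeing the data, the count was 4071, a fit in which the lone library is assumed to vary like the others. In THP1 the count of 2 became 3 with a pseudocount of 0.1, 23 with no filter, 1 with a mean of at least 5 FPKM, with median of ratios scaling, with TPM and with TPM without the unnamed ID, 7 with no intensity trend, 3 with the compared groups alone, 0 with the replicate block, 10 when testing protein-coding genes with 300 or more exonic bases, and 0 to 4 with 1 library left out. For the difference between the lines, 4544 genes passed, 4139 with the replicate block, 3928 to 4304 with 1 library left out and 3060 without treated libraries B and C. For 10 against 1 ug/ml, 2249 passed, 1827 with the replicate block, 1482 to 1730 with 1 library left out and 611 without treated libraries B and C. Of the genes named in the text, 163 were called in B11 at 1 against 0 ug/ml. Of these, 157 kept the call in each of the 17 alternatives that tested them. Some low genes were not tested in every alternative, for instance with a mean of at least 5 FPKM. No named gene reversed, and none changed its call with the block. Because the table holds FPKM and not counts, differences of low genes are limited by a depth that is known only relatively.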

Other observations

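Of 12 tested prostaglandin and leukotriene genes, 4 rose and 6 fell in B11 at 1 ug/ml (median -0.19), and 4 rose and 4 fell among those with a mean of at least 5 FPKM. LTA4H and LTC4S, which turn leukotriene A4 into B4 and C4, fell from 104, 96.6 and 103 to 38.3, 40.5 and 39.7 FPKM and from 331, 296 and 323 to 80.2, 93.7 and 87.3. ALOX5AP, which presents arachidonic acid to 5-lipoxygenase, rose from 17.7, 18.4 and 13.5 to 40.5, 43.7 and 52.1 and was at 16.97, 15.9 and 14.9 at 10 ug/ml. In polyamine metabolism ODC1, the ornithine decarboxylase, rose from 26.3, 25.1 and 29.2 to 89.6, 84.9 and 78.7 FPKM and the spermidine synthase SRM from 54.1, 54.9 and 51.98 to 110.2, 133 and 126, while SAT1, which acetylates polyamines for export, fell from 63.8, 85.1 and 75.3 to 32.2, 33.004 and 34.04. Of 12 genes of this pathway 4 rose and 1 fell.

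Of 16 tested genes of the programme of MLL fusions, which THP1 carries as MLL-AF9, 2 rose and 5 fell (median -0.01), none by 2-fold. Over all genes, 19.8% were called higher and 17.3% lower. The number that fell was 2 without treated libraries B and C and in a fit of the compared groups alone, and 3 without untreated library A, untreated library C or treated library C. HOXA9 was at 84.02, 89.7 and 83.5 FPKM untreated and 85.9, 84.3 and 84.3 treated and was not called (log2 difference -0.02, SE 0.07, adjusted p = 0.897). MEF2C rose from 77.5, 66.9 and 80.6 to 107, 103 and 105, and the chromatin regulator JMJD1C fell from 73.9, 62.2 and 67.1 to 41.1, 35.02 and 34.6.

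Among 14 BCL2 family genes, 9 rose and 1 fell, and 5 rose without treated libraries B and C. The proapoptotic PMAIP1 rose from 5.77, 7.05 and 7.92 to 23.9, 22.2 and 23.2 FPKM, and BMF, another proapoptotic member, fell from 17.9, 22.3 and 20.4 to 6.095, 3.93 and 7.64. FOXO target genes fell in 13 of 21 cases and rose in 2 (median -0.65), and 8 fell without treated libraries B and C, as under TPM without the unnamed ID. TXNIP, an inhibitor of thioredoxin that responds to glucose, went from 641, 822 and 677 to 379, 423 and 410.4 FPKM and to 117, 111 and 103 at 10 ug/ml. TSC22D3, known as GILZ, rose from 24.7, 33.6 and 25.3 to 75.1, 84.02 and 82.8. Of 9 telomerase and shelterin genes, 4 rose and none fell, and DKC1, the telomerase RNA-binding protein dyskerin, went from 58.7, 65.6 and 47.4 to 96.9, 94.3 and 97.9. The tissue inhibitors of metalloproteinases TIMP1 and TIMP2 fell, from 1118, 1137 and 1081 to 576, 644 and 585 and from 83.3, 73.2 and 81.8 to 40.6, 41.1 and 41.97 FPKM, where TIMP3 rose.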
